A study of Mus musculus with 25 samples.

Results

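The EphA receptors and their A-type ephrin ligands were followed through the compartments of the developing mouse palate. The 10 genes, Epha2, Epha3, Epha4, Epha5 and Epha7 among the receptors and Efna1 to Efna5 among the ligands, were taken by symbol from an RNA-seq table of 37406 genes, in which each had 1 row. All libraries came from wild type CD1 embryos at E14.5, shortly after the palatal shelves have fused at the midline. Tissue was cut by laser capture microdissection from 8 compartments, 4 in the anterior palate (medial, lateral, oral, nasal) and the same 4 in the posterior palate. There were 3 libraries for each compartment and 4 for anterior nasal, 25 in all. Medial and lateral divide the same shelf that oral and nasal divide the other way, so these are overlapping dissections and not 8 separate tissues, and each library is a mixture of the cells inside its outline.

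Eph receptors are receptor tyrosine kinases that are activated by ephrins on a neighbouring cell. A-type ephrins are tethered to the membrane by a lipid anchor, EphA receptors bind most of them with overlapping preference, and contact usually ends in repulsion or adhesion and so in the sorting of cells at boundaries. Signals also run back into the cell that carries the ephrin. In the embryo this system is best known for axon guidance, vascular patterning and the segregation of mesenchymal and epithelial cells.

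The levels are RPKM, reads scaled by transcript length and by the mapped reads of the library, which allow genes to be compared per length. The depth implied by the steps between low values had a median of 3.27M reads (range 1.64M to 6.56M over the libraries), so 1 read on a transcript of 2000 bases was worth 0.153 RPKM at the median. This is the read total behind the RPKM values, and it is lower than the average reads per sample that the study states. The gap was not examined. Palatal mesenchyme markers summed to 330 to 663 RPKM in every library, while the epithelial list summed to 14.9 to 122 RPKM. Posterior medial replicate 2 and anterior oral replicate 1 stood apart from the rest, with median correlations of 0.652 and 0.703 to the other libraries of their compartment. The libraries came from 8 sequencing runs, and 6 of the alignment names carry the tag of another project, ERK2_WT in 2 and Tgfbr2_WT in 4, although every label reads CD1 wild type. Anterior medial was read in 1 run. Lateral and medial libraries share no run, in the anterior or in the posterior palate. For these comparisons run and compartment cannot be told apart.

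Epha3 was the most abundant EphA receptor transcript at the median, and the highest of the 5 in 23 of 25 libraries. In anterior oral replicate 1 and anterior lateral replicate 2 Epha7 was higher. Its level over the 25 libraries ran from 10.8 to 150.2 RPKM with a median of 72.1 RPKM, and it made up 13.3% to 64.4% of the summed RPKM of the 5 receptors, with a median of 49.7%. Epha7 had a median level of 37.6 RPKM (range 21.2 to 66.3 RPKM) and Epha4 a median of 31.6 RPKM (range 17.0 to 53.1 RPKM). These 3 receptors are best known as guidance receptors of axons and migrating cells. Epha5, otherwise prominent in the nervous system, was much lower, with a median of 2.97 RPKM and a range of 0.333 to 10.6 RPKM. Epha2, typical of epithelia, did not exceed 2.89 RPKM in any library and had a median of 1.28 RPKM.

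Among the ligands Efna4 was the most abundant at the median, 29.7 RPKM (range 20.6 to 108 RPKM), followed by Efna5 at 22.5 RPKM (range 14.4 to 41.1 RPKM). Efna1, an ephrin first found in endothelial cells, had a median of 15.9 RPKM, and Efna2 one of 12 RPKM. Efna3 was near the detection limit, with a median of 2.08 RPKM and is listed at 0 in posterior medial replicate 2. The receptors summed to 74.2 to 233 RPKM and the ligands to 72.1 to 173 RPKM. Both classes were therefore present in every compartment. Efna1, Efna3 and Efna4 lie together within 66.3 kb of chromosome 3 (chr3:89075652-89141950 of mm9, as the table lists them), yet their median levels differed from 2.08 to 29.7 RPKM. The other members lie apart, and the table places them on mm9 at chr4:140857155-140885293 (Epha2), chr16:63545044-63863983 (Epha3), chr1:77363760-77511663 (Epha4), chr5:84483788-84846407 (Epha5), chr4:28740295-28894649 (Epha7), chr10:79642227-79652755 (Efna2) and chr17:62952306-63230666 (Efna5). Each value covers the whole gene, so isoforms are not resolved.

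**Figure D1:**
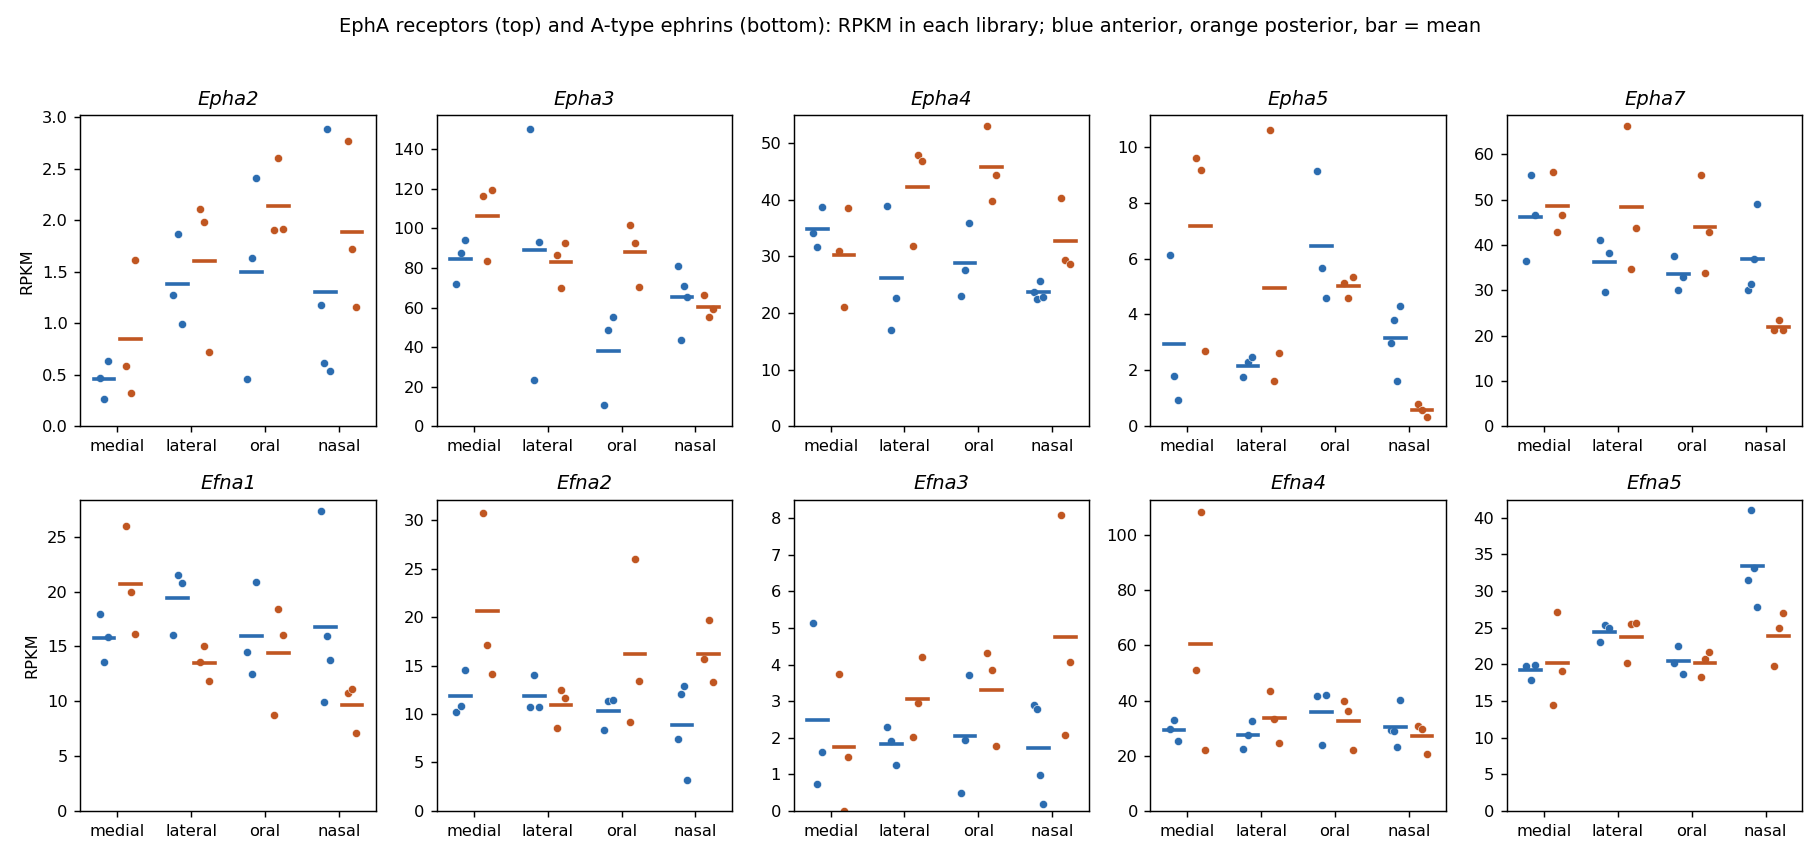
RPKM of the 10 genes (vertical axis, linear, from 0) in each of the 25 libraries (points) by compartment, anterior in blue and posterior in orange, with bars at the group means. The 3 posterior nasal points of Epha5, 0.333 to 0.794 RPKM, and of Epha7, 21.2 to 23.4 RPKM, lie below those of every other compartment.

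Differences among the 8 compartments were tested in a single fit of all libraries (limma moderated F test on log2(RPKM + 0.1), p-values adjusted by Benjamini-Hochberg over the 11913 genes that reached 5 RPKM in at least 3 libraries). Epha2 and Efna3 did not reach this minimum, which left 8 of the 10 genes. Of all genes tested, 4.42% had an adjusted p under 0.05, and of the 8 members 1 did. An unadjusted P under 0.05 was found for 4 of the 8, against 12% of all genes. The member called was Epha5, whose group means spanned 3.30 on the log2 scale (adjusted p = 0.0274). Epha5 reached 5 RPKM in 8 of the 25 libraries, none of them nasal or anterior lateral, and with no minimum its adjusted p was 0.0451. The call rested on the posterior nasal libraries: the adjusted p was 0.0688 without posterior nasal replicate 1, 0.106 without replicate 2 and 0.161 without replicate 3, and it was 0.183 with sequencing run as a covariate. Epha7 had an adjusted p of 0.0823 and Efna5 one of 0.153. Without posterior lateral replicate 2 the value of Epha7 was 0.0445, and without posterior medial replicate 2 that of Efna5 was 0.0195. The other 5 members tested, Epha3, Epha4, Efna1, Efna2 and Efna4, had adjusted p-values of 0.253 to 0.894.

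Epha5 was measured at 0.794, 0.578 and 0.333 RPKM in posterior nasal. It was measured at 5.11, 4.58 and 5.33 RPKM in posterior oral, at 2.97, 3.80, 1.64 and 4.30 RPKM in anterior nasal and at 9.11, 5.66 and 4.58 RPKM in anterior oral. The posterior nasal libraries were the lowest of all, below each of the other 22, which began at 0.929 RPKM in an anterior medial library. Elsewhere the spread within a compartment was wide: 6.12, 1.80 and 0.929 RPKM in anterior medial, 9.59, 9.18 and 2.71 RPKM in posterior medial, and 10.6, 1.63 and 2.63 RPKM in posterior lateral. Anterior lateral was even, at 1.75, 2.29 and 2.47 RPKM. In order of their means the compartments ran from posterior medial (7.16 RPKM) through anterior oral, posterior oral, posterior lateral, anterior nasal, anterior medial and anterior lateral to posterior nasal (0.568 RPKM). Of the 7 pairs of neighbours in this order 6 had overlapping ranges, and the step down to posterior nasal was the exception. On the longest GENCODE transcript the posterior nasal values amount to only about 35.3, 16.3 and 6.12 reads.

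The start regions of 3 receptor genes whose levels set posterior nasal apart are shown so that the sequences can be read beside their values: Epha5 and Epha7, which were lowest there, and Epha8, a receptor that is no member of the set and is described below. Each run is the RefSeq window from 250 bases before to 50 bases after the annotated start in GRCm38.p6, 5′ to 3′ on the gene's strand, in lower case. Capitals mark GC boxes, the letters GGGCGG on either strand. The windows are chr5:84417333-84417632 (minus strand) for Epha5, the first of a pair for Epha7 at chr4:28812881-28813180 (plus strand), and chr4:136956767-136957066 (minus strand) for Epha8.
Epha5: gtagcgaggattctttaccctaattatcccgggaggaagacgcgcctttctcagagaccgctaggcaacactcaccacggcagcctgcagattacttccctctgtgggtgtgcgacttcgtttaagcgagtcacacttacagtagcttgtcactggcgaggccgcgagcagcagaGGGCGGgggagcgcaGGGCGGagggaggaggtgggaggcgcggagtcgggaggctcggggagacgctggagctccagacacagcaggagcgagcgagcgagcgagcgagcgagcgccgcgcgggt
Epha7: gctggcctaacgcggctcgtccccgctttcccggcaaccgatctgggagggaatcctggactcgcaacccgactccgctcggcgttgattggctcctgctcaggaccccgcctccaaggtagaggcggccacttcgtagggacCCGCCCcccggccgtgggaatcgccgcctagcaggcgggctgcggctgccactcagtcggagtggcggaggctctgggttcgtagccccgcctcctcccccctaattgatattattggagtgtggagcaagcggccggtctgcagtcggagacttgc
Epha8: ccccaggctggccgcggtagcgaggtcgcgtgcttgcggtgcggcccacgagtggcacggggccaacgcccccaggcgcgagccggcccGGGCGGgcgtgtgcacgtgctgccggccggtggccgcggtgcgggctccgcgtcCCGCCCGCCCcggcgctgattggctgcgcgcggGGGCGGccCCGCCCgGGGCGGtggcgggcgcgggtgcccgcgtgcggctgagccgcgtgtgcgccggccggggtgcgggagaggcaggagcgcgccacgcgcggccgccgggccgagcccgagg
A GC box was found 2 times in the Epha5 window, 1 time in the Epha7 window and 6 times in the Epha8 window. RefSeq windows were matched for all 10 members, 13 windows in total, and 8 members had a GC box in at least 1 window. Of all 32851 windows of this length 35.7% had one, a share counted per window and not per gene. The TATA box TATAAA, searched on both strands, was in no member window and in 13.6% of all windows. The RUNX motif TGTGGT, also searched on both strands, was in window 2 of Efna3, in the Efna4 window and in 16.8% of all windows. These are letter matches only.

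The comparison of oral with nasal asks which genes differ between the surface that faces the mouth and the one that faces the nasal cavity. In the posterior palate the mean of Epha5 was 5.01 ± 0.385 RPKM (SD, n = 3) in oral and 0.568 ± 0.230 RPKM (SD, n = 3) in nasal, a ratio of 8.81, and the groups did not overlap. Only 2 of the 6 libraries reached 5 RPKM, so the gene was under the minimum of the main test. With no minimum the oral minus nasal difference was 2.99 on the log2 scale (95% interval 2.21 to 3.78) and the limma adjusted p was 0.0512, above the threshold. A minimum of 1 RPKM in 3 libraries would have been met through the oral libraries alone, so no call is read from it. Within single runs the difference was 2.54 in run C (1 library each) and 2.90 in run G (2 oral, 1 nasal). In bulk tissue fewer cells of one type and less RNA per cell cannot be told apart.

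Epha7 ran parallel at a higher level. It was measured at 55.3, 33.9 and 42.8 RPKM in posterior oral and at 21.2, 23.4 and 21.2 RPKM in posterior nasal, groups that did not overlap. The difference was 0.97 (SE 0.24) on the log2 scale with an unadjusted P of 0.0031, and it failed the correction over all genes (adjusted p = 0.130). Within run C it was 1.38 and within run G 0.70. Epha3 was measured at 102, 92.9 and 70.5 RPKM in posterior oral and at 66.4, 55.5 and 59.6 RPKM in posterior nasal, again without overlap, with a difference of 0.53 (SE 0.22, adjusted p = 0.571). None of the 7 members tested in posterior oral against nasal was called, where 1.25% of all genes were; 2 of the 7 had an unadjusted P under 0.05, against 8% of all genes, and 2 did not overlap, against 11.8%. The median difference of the 7 was 0.49, and that of all genes -0.01.

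In the anterior palate neither Epha7 nor Epha3 was higher in oral. Epha7 was measured at 37.6, 30.0 and 32.9 RPKM in anterior oral and at 30.1, 31.5, 36.9 and 49.0 RPKM in anterior nasal, with a difference of -0.12 (95% interval -0.70 to 0.47). Epha3 stood at 10.8, 48.8 and 55.4 RPKM in anterior oral and at 81.1, 43.6, 71.0 and 65.3 RPKM in anterior nasal. The low value is that of anterior oral replicate 1, which stands apart, and without it the difference of Epha3 moved from -1.04 to -0.29. Epha5 alone among the receptors did not overlap, at 6.45 ± 2.37 RPKM (SD, n = 3) in oral against 3.18 ± 1.16 RPKM (SD, n = 4) in nasal. Its difference was 1.02 with no minimum (95% interval -0.01 to 2.05), and within runs C, D and E it was 0.09, 1.41 and 1.73.

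**Figure D2:**
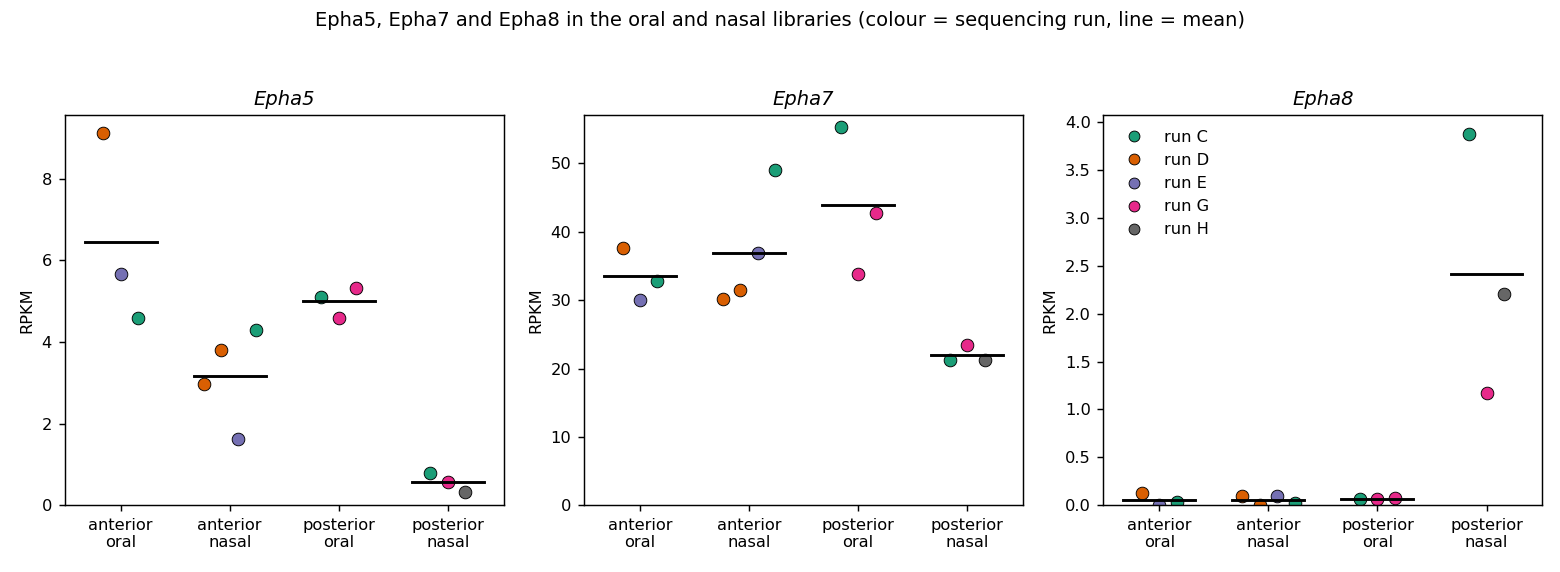
RPKM (vertical axis, from 0) of Epha5, Epha7 and Epha8 in the anterior and posterior oral and nasal libraries, 1 point per library, coloured by sequencing run, with lines at the means. Posterior nasal holds the lowest Epha5 and Epha7 values and the highest Epha8 values, 1.17 to 3.87 RPKM, in each of its 3 runs.

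Whether the oral minus nasal difference itself differed between the posterior and the anterior palate was tested as an interaction over 11442 genes. The interaction was 1.97 (95% interval 0.84 to 3.10) for Epha5, with an adjusted p of 0.411; it reached 5 RPKM in 4 oral and 0 nasal libraries, and with no minimum its adjusted p was 0.710. For Epha7 it was 1.09 (0.37 to 1.81, adjusted p = 0.645) and for Epha3 1.58 (0.09 to 3.06). No member was called at an adjusted p under 0.05, against 0.035% of all genes. Of the 8 members tested, Epha3 and Epha7 met the thresholds the study used, a fold over 2 with P under 0.05 before adjustment. Of all genes 2.38% met them. Epha5 met them too, but it passed the minimum only through the oral libraries, so it is not read against that share. With the replicate number as a block 1 of these 3 receptors still met the thresholds. Without anterior oral replicate 1 the interaction of Epha3 was 0.82.

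**Figure D3:**
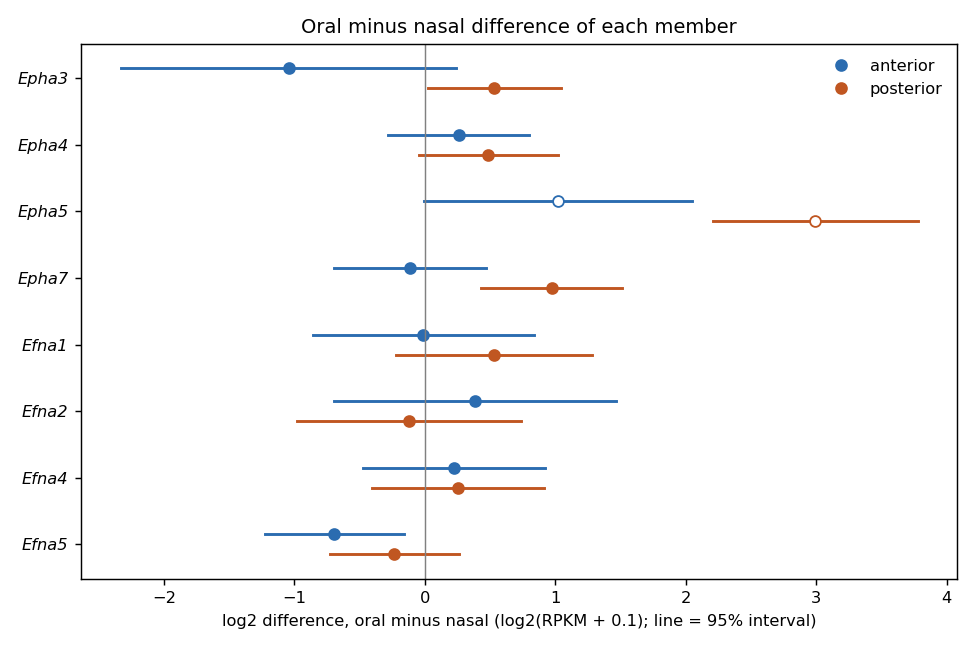
Oral minus nasal difference (horizontal axis, log2(RPKM + 0.1)) of 8 members in the anterior (blue) and posterior palate (orange), with 95% intervals as lines. Filled points are from the main test and open points, those of Epha5, from the test with no minimum; Epha5 in the posterior palate, at 2.99, lies farthest from 0.

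The comparison of posterior with anterior within the nasal compartment bears on the same libraries from the other side, and shares the posterior nasal libraries with the comparison above. Epha5 had a posterior mean of 0.568 RPKM against 3.18 RPKM in the anterior, which was 5.59 times higher. The difference was -2.27 (SE 0.60, 95% interval -3.52 to -1.02) with an adjusted p of 0.0574, just above the threshold. Leaving out a library of another compartment brought it under the threshold in 7 cases, to 0.0237 without posterior lateral replicate 1, 0.0442 without posterior lateral replicate 2, 0.0329 and 0.0466 without anterior medial replicates 1 and 3, 0.0407 and 0.0408 without posterior medial replicates 2 and 3, and 0.0493 without anterior oral replicate 1. Leaving out a nasal library gave 0.0517 to 0.275. With run as a covariate the difference was -1.89 and the adjusted p 0.920.

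Epha7 differed by -0.72 (SE 0.24, adjusted p = 0.168) between posterior and anterior nasal. The ligands differed in both directions, and none passed the test. Efna5, a ligand known from retinal axon guidance, was measured at 19.7, 25 and 27.0 RPKM in posterior nasal against 31.5, 41.1, 33.1 and 27.8 RPKM in anterior nasal, a difference of -0.48 (SE 0.20, adjusted p = 0.326). Efna2 stood at 15.7, 19.7 and 13.3 RPKM against 7.38, 12, 12.9 and 3.24 RPKM, a difference of 1.03 (SE 0.40, adjusted p = 0.293). Neither pair of groups overlapped. Efna1 overlapped, with a difference of -0.72 (SE 0.31, adjusted p = 0.348). Of the 8 members tested 5 had an unadjusted P under 0.05, against 11.9% of all genes, 2 met the study's thresholds, against 5.62%, and 5 did not overlap, against 20.2%; none was called, against 1.91%. The median difference of the 8 was -0.32 and that of all genes 0.11.

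Along the whole anterior-posterior axis Epha4 was the receptor with the smallest p. This receptor, which binds both A- and B-type ephrins, had a lowest, median and highest level of 21.0, 39.2 and 53.1 RPKM in the 12 posterior libraries and of 17.0, 25.7 and 39.0 RPKM in the 13 anterior ones, so the groups overlapped. The fit had no term for compartment and pooled the overlapping dissections of each end as if they were independent. In it the posterior minus anterior difference was 0.42 (SE 0.15). The limma adjusted p was 0.138 over the 8608 genes with at least 10 RPKM in 6 libraries. Without posterior medial replicate 2 the difference was 0.50 and was called (adjusted p = 0.0322), and without both libraries that stand apart the adjusted p was 0.0451. Efna2 had a difference of 0.57 (SE 0.21, adjusted p = 0.175). None of the 7 members tested was called, against 3.32% of all genes, and 2 had an unadjusted P under 0.05, against 15.3%.

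By compartment, Epha4 stood at 31.9, 47.8 and 46.8 RPKM in posterior lateral and at 39.0, 17.0 and 22.7 RPKM in anterior lateral, a difference of 0.75 (SE 0.28, adjusted p = 0.496). In oral it was measured at 53.1, 39.8 and 44.3 RPKM in the posterior and at 23.0, 27.7 and 35.8 RPKM in the anterior palate, without overlap (difference 0.68, adjusted p = 0.639). In nasal the posterior values of 40.3, 29.3 and 28.7 RPKM also lay above the anterior ones of 23.7, 22.5, 25.7 and 22.8 RPKM (difference 0.45, adjusted p = 0.529). In medial the difference was -0.24 (95% interval from -0.82 to 0.34). Epha3 in oral differed by 1.50 (SE 0.54, adjusted p = 0.541), where anterior oral replicate 1 is again the low library; without it the difference was 0.75. In the medial compartment Epha5 differed by 1.46 (SE 0.64, adjusted p = 0.316). Efna4 differed there by 0.76 (SE 0.41, adjusted p = 0.395), with posterior values of 51.2, 108 and 22.1 RPKM; without posterior medial replicate 3, the low library, it was 1.35 and called (adjusted p = 0.0300), and without replicate 2, the high one, it was 0.20. The share of all genes called was 1.66% in medial, 0.865% in lateral and 0.512% in oral, and of the 8 members tested in each none was called. In oral 2 of the 8, Epha3 and Epha4, did not overlap, against 8.89% of all genes.

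**Figure D4:**
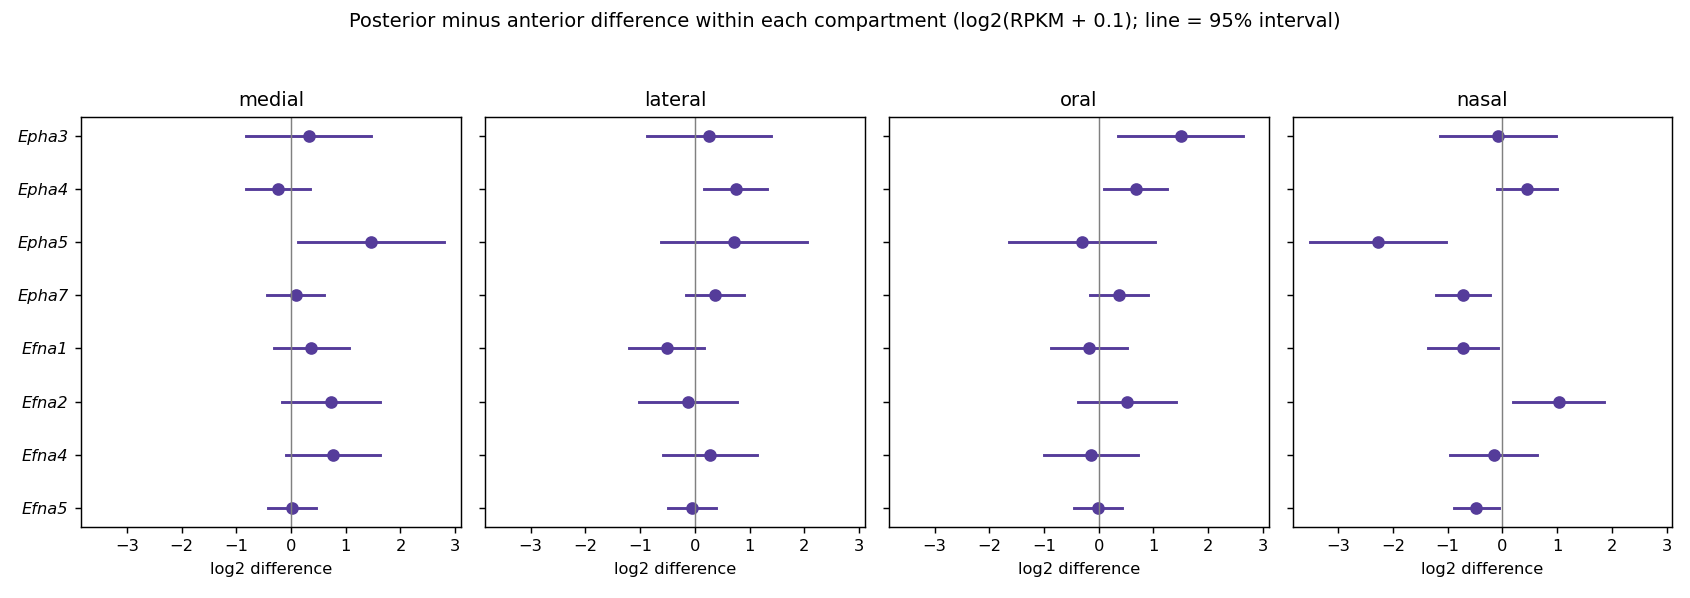
Posterior minus anterior difference (horizontal axis, log2(RPKM + 0.1)) of 8 members in the medial, lateral, oral and nasal compartments, with 95% intervals as lines. The interval of Epha5 in nasal, -3.52 to -1.02, lies farthest below 0, and those of Epha4 lie above 0 in lateral and oral.

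Efna5 was the member that set anterior nasal apart. Its 4 anterior nasal libraries, 27.8 to 41.1 RPKM, lay above every other library of the series, the next being 27.1 RPKM in posterior medial replicate 2. Against anterior oral, at 20.2, 22.5 and 18.6 RPKM, the oral minus nasal difference was -0.69 (SE 0.23, unadjusted P = 0.0167), and it failed the correction (adjusted p = 1.00); the blocked fit did not change this call. Within runs C, D and E the difference was -0.58, -0.83 and -0.55. No gene of the 10684 tested was called in anterior oral against nasal, while 318 genes (2.98%) had an unadjusted P under 0.05 and 3.67% did not overlap; of the 7 members Efna5 alone met either.

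Lateral against medial asks for differences between the sides of the palate and its midline. Lateral and medial libraries share no run, so none of these differences can be told apart from one between runs. In the anterior palate Efna5 was measured at 23.0, 25.4 and 24.9 RPKM in lateral and at 19.8, 17.9 and 20.0 RPKM in medial, a difference of 0.35 (SE 0.11, adjusted p = 0.187). Epha2, under the minimum of the test, stood at 1.28, 1.87 and 0.994 RPKM in lateral and at 0.470, 0.270 and 0.633 RPKM in medial, without overlap. In the posterior palate Efna1 stood at 13.6, 15.1 and 11.9 RPKM in lateral and at 26.0, 20.0 and 16.2 RPKM in medial, and Efna2 at 8.54, 12.4 and 11.7 RPKM against 30.7, 17.2 and 14.1 RPKM. Neither pair overlapped, and the differences were -0.59 (SE 0.29) and -0.86 (SE 0.38), both with an adjusted p of 0.957. In the anterior palate 0 of 7 members were called by limma, against 2.51% of all genes, 1 had an unadjusted P under 0.05, against 15%, and 1 did not overlap, against 21.3%. In the posterior palate 0 of 8 members and 0 of all genes were called, 0 members and 159 genes (1.54%) had an unadjusted P under 0.05, and 2 members did not overlap, against 6.62%. As an interaction, the posterior difference less the anterior one, Efna1 had -0.88 (SE 0.32, adjusted p = 0.964); 0 of 8 members and 0.00902% of all genes were called.

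The rest of the EphA pathway was examined as a list of 37 genes. Of the other EphA receptors, Epha1 had a median of 2.32 RPKM and Epha6 did not exceed 0.698 RPKM. Epha8, named after its values were seen, was measured at 3.87, 1.17 and 2.21 RPKM in posterior nasal, about 111, 21.2 and 26.1 reads. In the other 22 libraries it did not exceed 0.547 RPKM or about 10 reads, and it was listed at 0 in 10 of them. It was under the minimum of every comparison, so these levels are a description with no test. Levels of Epha5 and Epha8 thus stood at opposite ends in the same 3 libraries. Among signalling genes, Fyn, a Src-family kinase, was higher in anterior lateral than medial (0.79, adjusted p = 0.0343), the 1 of 30 list genes tested that was called, against 2.51% of all genes. Anterior lateral and medial share no run, and with run as a covariate 0 of all genes tested were called there. Chn1, the GTPase activating protein α-chimaerin that acts below Epha4, was higher in posterior than anterior medial (0.85, adjusted p = 0.0453), also 1 of 30, against 1.66% of all genes. In that comparison 3 of the 30 met the study's thresholds, against 1078 of 11913 genes. There 9 of the 30 had an unadjusted P under 0.05, the largest count for the list, and the share over all genes is not given here. In the other 10 comparisons 0 genes of the list were called by limma, with 0 to 4 of the 27 to 30 tested at an unadjusted P under 0.05. The share over all genes was 1.54% to 15.3% where it is given. For both interactions and within lateral and oral it is not given. Of these 10 the highest counts were 4 of 27 for posterior against anterior, against 15.3%, and 4 of 30 among the 8 compartments, against 12%, both near the share over all genes. Ngfr, a co-receptor of A-type ephrins, had a posterior oral minus nasal difference of 1.95 (SE 0.41, adjusted p = 0.0773). Efnb2, a B-type ephrin, had an oral-nasal interaction of 1.27 (SE 0.33, adjusted p = 0.400), the only list member there with an unadjusted P under 0.05.

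The osteoblast marker sum also set the posterior nasal libraries apart. The 5 osteoblast markers summed to 376 to 545 RPKM in posterior nasal, 82.5 to 105 RPKM in posterior oral, 87.4 to 115 RPKM in anterior nasal and 42.7 to 155 RPKM over the other 22 libraries. Sp7, Ibsp, Alpl and Runx2 were each higher in posterior nasal than oral (limma adjusted p = 0.0046, 0.0284, 0.0197 and 0.0419). Bglap2, a marker of mature osteoblasts, was listed at 0 in all 25 libraries. The sum thus rests on the other markers, and mature osteoblasts are not shown to be absent. The 6 endothelial markers summed to 56.8 to 85.3 RPKM in posterior nasal and to 128 to 186 RPKM in posterior oral, the nerve and Schwann cell list to 38.4 to 52.5 and 54.2 to 67.6 RPKM, and the epithelial list to 26.7 to 48.1 and 18.6 to 28.1 RPKM, which overlap. In anterior nasal these lists summed to 70.6 to 128, 78.4 to 100 and 50.5 to 122 RPKM. Against posterior nasal the endothelial ranges overlapped there. The nerve and Schwann cell sums and the epithelial sums were higher in anterior nasal, without overlap. The nerve and Schwann cell sums were also higher in posterior oral than in posterior nasal, again without overlap. The part of these markers in the levels of Epha5, Epha7 and Epha8 was not tested.

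**Figure D5:**
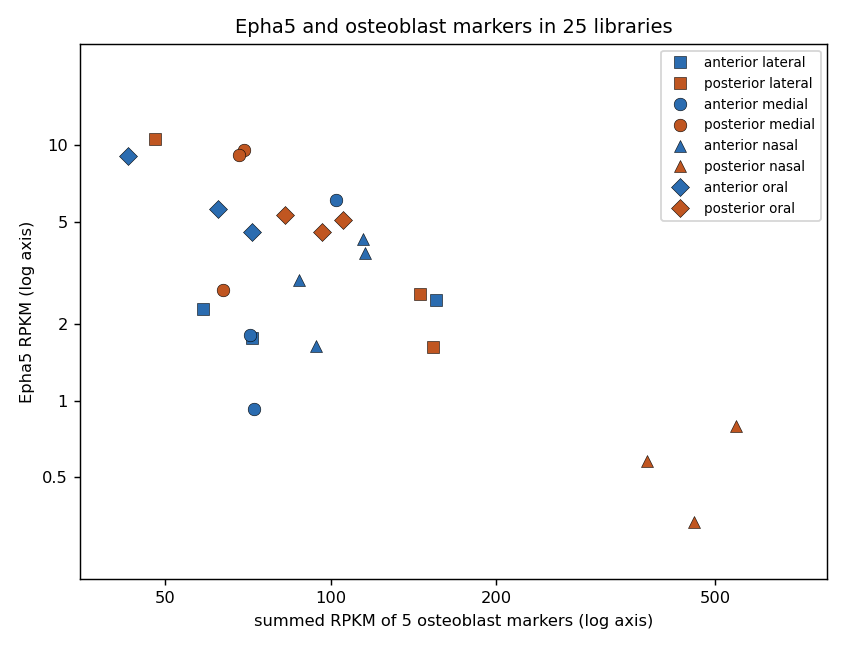
Epha5 level (vertical axis, RPKM, log axis) against the summed RPKM of 5 osteoblast markers (horizontal axis, log axis) in 25 libraries, by compartment. The 3 posterior nasal libraries lie alone at the lower right, at 376 to 545 RPKM of markers and at most 0.794 RPKM of Epha5.

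The genes most like each of the 4 members with the widest range of group means were sought over the 25 libraries and 11912 other genes. These correlations are descriptions, and the libraries share runs and compartments. Epha5 was most like Dock9 (r = 0.84), Ptprk (0.82) and Rasgrp3 (0.81). Epha7 was most like Pcdh15 (0.81), Mllt3 (0.81) and Ppfia2 (0.79). Epha3 was most like Olfm1 (0.78), Fam19a5 (0.76) and Zfp259 (0.74), and Efna2 most like Ptp4a3 (0.85), B4galt7 (0.83) and Maged2 (0.83). Among the 8 members tested over the compartments, without Epha2 and Efna3, the highest correlation was that of Epha5 with Epha7 (r = 0.58), and the lowest that of Epha4 with Efna5 (r = -0.48). The neighbours Efna1 and Efna4 had an r of 0.30.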

How the data were processed

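Total RNA from laser captured tissue was amplified, tagmented and sequenced as single-end reads of 50 bases by the authors, with a kit that does not mark strand. TopHat and mm9 are named in the submitters' processing notes, and the gene annotation is not given in the sources used here. The deposited values are RPKM, made by the authors in GeneSpring after duplicate reads and reads with more than 1 alignment were removed. Read counts were not used here, and depth was derived from the steps between low RPKM values (183 of the 521 genes with clear steps gave the same total, and the next best total had 24).

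Values were tested as log2(RPKM + 0.1) with limma 3.58.1 in R 4.3.3, with Benjamini-Hochberg adjustment over all genes tested and a threshold of 0.05. Pairs used their own libraries and the study's minimum of 5 RPKM in 3 libraries, posterior against anterior 10 RPKM in 6, and the within-compartment contrasts the fit of all 25. SE and 95% intervals come from these fits. The fits were tested on simulated data. All 10 members are named; of the pathway list, genes past the threshold or with the largest differences are named, and likeness was ranked for the 4 members of widest range. Members and lists were chosen with earlier results of these data known. Replicates are biological by the study's methods, but no label ties them to embryos, so p-values measure the spread between these samples. Same-numbered anterior oral and nasal libraries deviated together (r = 0.116 to 0.242), which meets the rule for pairing; the printed values are from the fit without the block, whose blocked form was an alternative. The other comparisons were taken as unpaired. In each at least 1 same-numbered pair had an r of 0.0425 or lower. Other pairs reached 0.218 in posterior lateral against medial and 0.305 in posterior oral against nasal. No libraries were identical.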

Additional observations from a re-analysis of the deposited data

How the results depend on the processing

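Over 545 alternatives to the 19 signed member differences with an unadjusted P under 0.05 none changed sign. Many of these alternatives could not change it. Another minimum or the mean-variance trend leaves a difference as it is, and so does leaving out a library outside a within-compartment contrast. The 19 were also chosen by their P in the same data. The count of members called moved as follows. Among the 8 compartments it was 1, and it was 0 with a pseudocount of 1 (Epha5 adjusted p = 0.0583) and 0 with run as a covariate, 2 after quantile normalization (with Efna5, 0.0422) and 3 without the 2 libraries that stand apart, an alternative chosen after seeing the data (with Epha7, 0.0488, and Efna5, 0.0176). Posterior oral against nasal had 1 instead of 0 with a minimum of 1 RPKM; this is Epha5, which met that minimum only through the oral libraries, and with no minimum the count was 0. Without the 2 libraries that stand apart, posterior against anterior had 1 (Epha4) and within nasal 1 (Epha5, 0.0279). Leaving out 1 library at a time gave 0 to 2 among the 8 compartments, 0 to 1 for posterior against anterior, 0 to 1 within medial and 0 to 1 within nasal, and 0 elsewhere; the cause was not tested. With the replicate number as a block, Epha5 had an adjusted p of 0.0091 among the 8 compartments and the block changed no member call. The rule for pairing was met only for anterior oral against nasal, where 0 genes were called with and without the block.

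Counts over all genes depended more on the choices. Over all alternatives other than leaving out 1 library at a time, they were 0 to 318 for anterior lateral against medial (262 as reported). They were 0 to 25 for posterior lateral against medial (0) and 0 to 6 for anterior oral against nasal (0). For posterior oral against nasal they were 11 to 143 (132), and for posterior against anterior 143 to 559 (286). Both interactions had 0 to 10 (1 and 4), and the compartments together 177 to 917 (526). Within compartments they were 164 to 209 in medial (198), 15 to 243 in lateral (103), 13 to 73 in oral (61) and 34 to 850 in nasal (227). The low end was run as a covariate for 7 of these. The high ends among the compartments, in lateral and in nasal came from leaving out the 2 libraries that stand apart. That alternative was chosen after seeing the data. Without posterior medial replicate 3 medial had 1007. Median centring changed the posterior against anterior calls that were higher in posterior from 143 of 286 to 114 of 293, and quantile normalization those in medial from 94 of 198 to 116 of 197. In nasal the median over all genes was 0.11 and after centring -0.02. Depth limits Epha2, Epha5 and Efna3, whose low values rest on few reads. A difference that missed the threshold is not shown to be absent.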
